A study of Mus musculus with 4 samples.

Results

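The genes described here encode 6 receptor tyrosine kinases and 4 ligands that carry growth signals from serum and from neighbouring cells to mesenchymal cells. The receptors are Pdgfra, Pdgfrb, Fgfr1, Fgfr2, Egfr and Met, and the ligands are Pdgfa, Pdgfb, Fgf7 and Fgf9. Every probe set whose platform annotation gave exactly 1 symbol, that symbol being one of these, was taken. All 10 genes were represented, by 16 of the 12422 probe sets tested, and 8251 genes were named on the array in all. A further 0 probe sets carried one of these symbols together with another.

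RNA was measured on 4 Affymetrix arrays. Of these, 2 held mouse embryonic fibroblasts, cultured cells of the embryo's connective tissue, in which Men1 had been knocked out and then given back. The other 2 held the same kind of knockout cells given vector alone, whose sample titles read Men1-/-. Men1 encodes menin, a nuclear scaffold protein of histone methyltransferase complexes, and the series set out to find the genes that menin regulates. All cells were of mixed FVB;129Sv background and lacked the endogenous gene. Culture medium held 10% serum, and cells were collected 24 h after plating at 70% density. The sources used here give neither the vector nor the promoter that drove Men1, nor whether the cells were 1 clone. Below, the groups are named Men1-complemented (or with Men1) and vector. As the labels do not tell whether the replicates of a group were separate cultures, the p-values reflect array-to-array spread that may be only technical.

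PDGF, FGF, EGF and HGF ligands bind the extracellular part of their receptors, which pair up and phosphorylate each other on tyrosines. Adaptor proteins then switch on RAS and the ERK kinases, and PI3 kinase and AKT. In embryonic fibroblasts PDGF receptors are the classic receptors for the mitogens that platelets release into serum. FGF7 is made by mesenchyme and acts on an epithelial splice form of FGFR2, and HGF, the ligand of MET, is likewise a mesenchymal factor that acts on epithelia.

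Promoter sequence is shown for 3 receptor genes. They were chosen after the values were seen: Fgfr2 had 2 probe sets whose groups did not overlap, and Egfr and Met read higher on the replicate 1 array than on the replicate 2 array in both groups, though some of these signals were at control level (defined below). Each is the 250 bases before the RefSeq gene start (GRCm38.p6), written 5′ to 3′ on the gene's strand, and capitals mark the GC box GGGCGG on either strand. The windows are chr7:130266809-130267058 on the minus strand for Fgfr2, chr11:16751953-16752202 on the plus strand for Egfr and chr6:17463707-17463956 on the plus strand for Met.
Fgfr2: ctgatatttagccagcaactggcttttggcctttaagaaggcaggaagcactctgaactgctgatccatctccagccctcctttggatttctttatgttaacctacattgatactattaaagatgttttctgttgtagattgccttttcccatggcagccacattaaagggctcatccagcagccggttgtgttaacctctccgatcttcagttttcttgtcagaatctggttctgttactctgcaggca
Egfr: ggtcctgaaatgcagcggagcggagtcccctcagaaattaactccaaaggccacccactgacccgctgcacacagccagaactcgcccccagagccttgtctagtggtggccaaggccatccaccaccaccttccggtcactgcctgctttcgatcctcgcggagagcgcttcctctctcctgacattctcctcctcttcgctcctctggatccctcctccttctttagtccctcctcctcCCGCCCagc
Met: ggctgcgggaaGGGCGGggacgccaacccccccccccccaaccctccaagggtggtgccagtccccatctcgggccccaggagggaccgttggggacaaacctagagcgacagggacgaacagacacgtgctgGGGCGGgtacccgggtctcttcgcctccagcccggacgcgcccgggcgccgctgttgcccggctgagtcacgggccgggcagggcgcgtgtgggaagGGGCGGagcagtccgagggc
The GC box occurred 3 times in the Met window, 1 time in the Egfr window and 0 times in the Fgfr2 window, and 32.7% of all 32851 promoter windows of this length held at least 1. Guanine and cytosine made up 74.0% of the Met window, 60.8% of the Egfr window and 44.0% of the Fgfr2 window, where the median of all windows was 52.4%. The AP-1 motif TGANTCA, searched on both strands, occurred 1 time in the Met window and in neither of the others (6.75% of all windows). The letters TATAAA, also searched on both strands, were in none of the 3 windows (12.4% of all windows).

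The values are MAS5 signals, a linear intensity per probe set, analysed as log2(signal + 16), and differences are Men1-complemented minus vector. On this scale the fold of dim probe sets is understated. As a floor served 19 bacterial and yeast control probe sets whose RNA showed no sign of having been added. The brightest of them reached 25.9 and 27.4 with Men1 and 15.9 and 20.0 with vector. Any signal no brighter than that on its own array is called control level. As the controls were brighter with Men1, the same signal can be called control level there and not with vector. The single Men1 probe set read 18.8 and 22.5 with Men1, against 18.1 and 29.5 with vector, so it did not check the labels. Where it lies relative to the deleted or the introduced sequence is not known here. Of 15 fibroblast markers, 10 were above the controls on all 4 arrays, and their summed signals were 12584 and 11769 with Men1 and 10614 and 12583 with vector. Thy1, a fibroblast surface marker, and Fap were at control level on all 4 arrays. Among markers of other cells, Epcam, Cdh5 and Ptprc, which define epithelium, endothelium and blood, were at control level on all 4 arrays, as were 5 of 8 epithelial, 4 of 8 endothelial and 4 of 6 measured blood cell markers. Cdh1 and Krt19 of the epithelial markers and Pecam1, Flt1 and Eng of the endothelial ones were above the controls on all 4 arrays. So were Cd68 and Cd74 of the blood cell markers. Summed signals of 10 skeletal muscle markers were 322 and 271 with Men1, against 425 and 395 with vector. Of those 10, 2 were lower with Men1 at an unadjusted limma p under 0.05: Tnni1, and Myog, which was at control level on Men1-complemented replicate 1. Of all probe sets 1.88% were called at that cut, in either direction. Of the 10 markers 0 passed after adjustment, and 4 were at control level on all 4 arrays. Their part in the results below was not tested. In bulk RNA of this kind, fewer cells of a type and less RNA per cell cannot be told apart.

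None of the 16 probe sets passed the threshold in limma with Benjamini-Hochberg adjustment, where 0.0% of all probe sets passed, and each had an adjusted p of 1. At an unadjusted limma p under 0.05 there were 0 of 16, where 1.88% of all probe sets were called. The smallest unadjusted limma p of the 16 was 0.108, for Fgfr2. Signals of the groups were fully apart, without overlap, for 4 of the 16, all of them lower with Men1, a share of 25.0% where 22.1% of all probe sets did not overlap and 11.7% did so in that direction. The 4 were 2 probe sets of the same gene, Fgfr2, and those of Fgfr1 and Fgf9, the last at control level on all arrays. With 2 arrays against 2, no permutation p can fall below 0.33. The median difference was -0.08 over the 16 probe sets and -0.01 over all probe sets, and 7 were higher and 9 lower with Men1. Signals were above the controls on all 4 arrays for 8 of the 16 (58.1% of all probe sets) and at control level on all 4 arrays for 4 (25.5% of all probe sets).

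**Figure D1:**
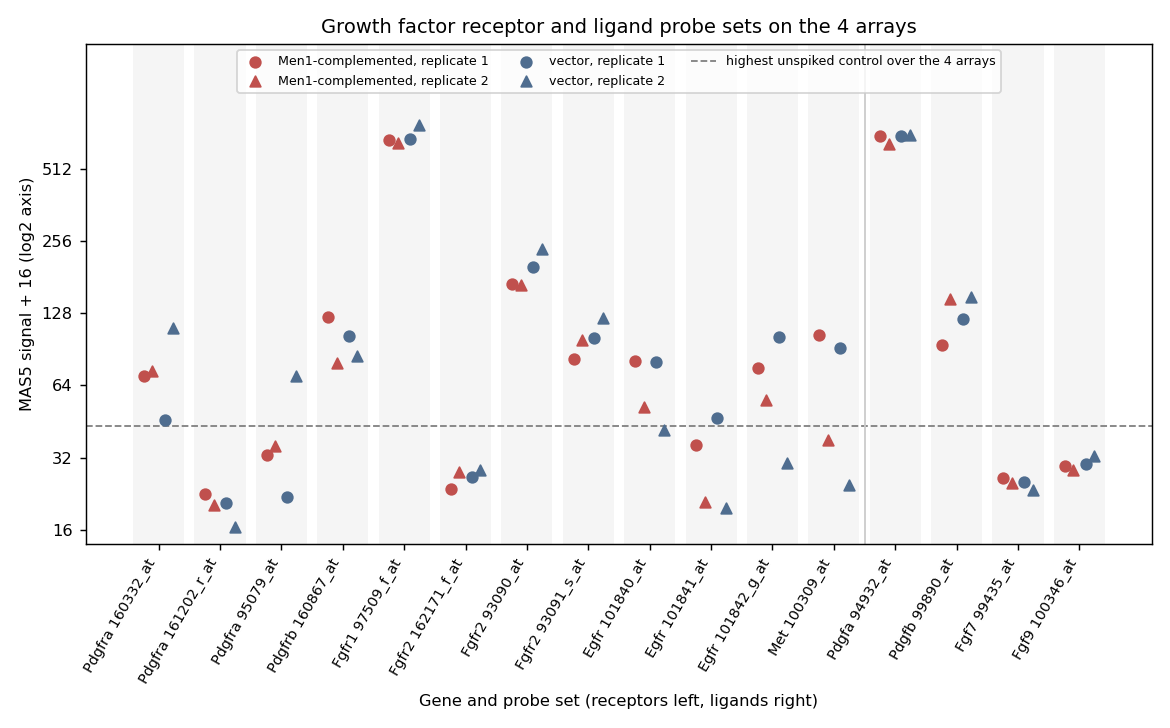
MAS5 signal plus 16 on a log2 axis for the 16 probe sets, receptors left and ligands right. Red marks are the Men1-complemented arrays and blue marks the vector arrays, circles are replicate 1 and triangles replicate 2, and the dashed line is the highest unspiked control over the 4 arrays (27.4) plus 16. For Fgfr2 93090_at both red marks (154.1 and 151.8 before 16 is added) lie below both blue marks (183.6 and 221.7), and for Met the circles lie above the triangles in both groups.

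Fgfr2, a receptor for several FGFs, was the member with the smallest p. Its probe set 93090_at read 154.1 and 151.8 with Men1, against 183.6 and 221.7 with vector. Both Men1-complemented arrays lay below both vector arrays, with means of 152.95 ± 1.63 and 202.65 ± 26.9 (SD, n = 2 each). The log2 difference was -0.37 with a standard error (SE) of 0.19 and a 95% interval of -0.85 to 0.12, which did not pass in limma (adjusted p = 1). A second probe set, 93091_s_at, read 66.9 and 83.5 with Men1, against 85.0 and 105.9 with vector, again without overlap. Its log2 difference was -0.29 (SE 0.21), and whether its probes read Fgfr2 alone was not checked. The nearest signals of that probe set, 83.5 with Men1 and 85.0 with vector, differed by less than either group's own SD of 11.7 and 14.8. Without single arrays the difference of 93090_at lay between -0.49 and -0.24 and that of 93091_s_at between -0.42 and -0.15. As the groups did not overlap, leaving out an array could change the size of these differences but not their sign. The third Fgfr2 probe set, 162171_f_at, was at control level on all 4 arrays and read 7.6 and 11.9 with Men1, against 10.7 and 12.3 with vector. It therefore gave no measure of a difference.

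Fgfr1, an FGF receptor typical of mesenchyme, was read by a single bright probe set. This probe set, 97509_f_at, read 658.5 and 643.9 with Men1, against 665.9 and 767.0 with vector. The groups did not overlap, but Men1-complemented replicate 1 and vector replicate 1 were close, at 658.5 and 665.9. The log2 difference was -0.13 (SE 0.18, 95% interval -0.60 to 0.34). The letter f in its name marks probes that can match related sequences, so it may not read Fgfr1 alone. After quantile normalization the groups overlapped for this probe set.

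**Figure D2:**
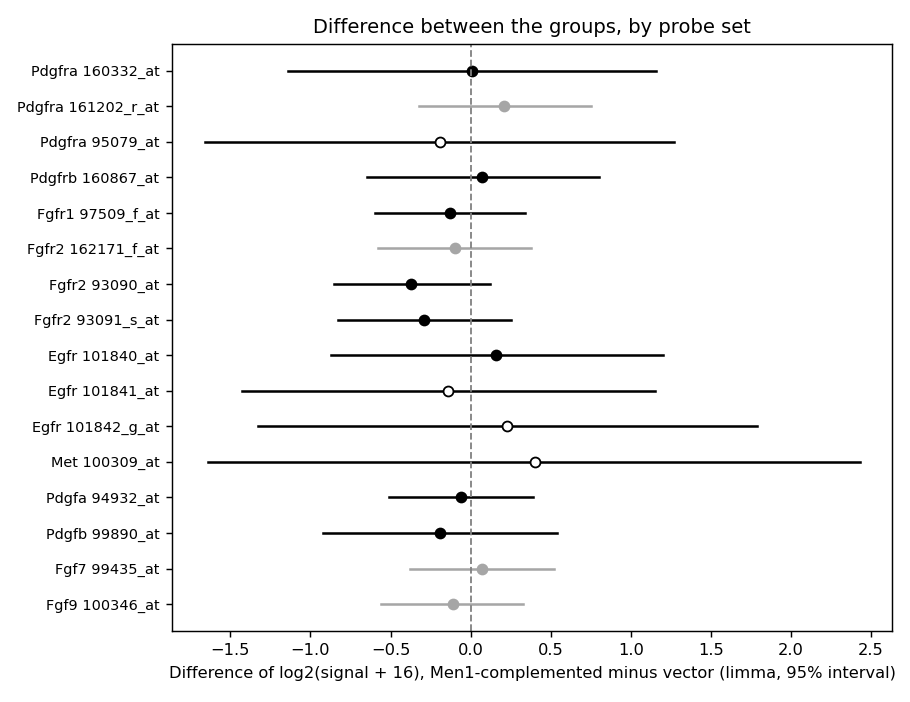
Difference of log2(signal + 16), Men1-complemented minus vector, with its 95% interval from limma, for each probe set. Grey marks are probe sets at control level on all 4 arrays and open marks those at control level on some of them, whose differences are uncertain in size. All 16 intervals include 0, that of Pdgfa (-0.51 to 0.39) being among the narrower ones and that of Met (-1.64 to 2.43) the widest.

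Pdgfra, the receptor that binds both PDGF-A and PDGF-B chains, varied more between the vector arrays than between the Men1-complemented ones. Probe set 160332_at read 54.0 and 57.9 with Men1, against 29.8 and 95.1 with vector. The vector arrays lay on either side of the Men1-complemented ones, and the log2 difference of the means was 0.01 (SE 0.44, 95% interval -1.14 to 1.16). Probe set 95079_at showed the same arrangement, with 16.7 and 19.8 with Men1 against 5.9 and 54.0 with vector. Of these 4 signals only vector replicate 2 exceeded its control, so the probe set was at control level with Men1. The bound on the fold was under 1 and no fold is given. Between the vector arrays, replicate 2 was at least 2.19-fold above replicate 1 in signal + 16, the control of the replicate 1 array standing in for its signal.

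For 160332_at the difference between replicates 1 and 2 was -0.08 with Men1 and -1.28 with vector, the second being larger in absolute size than that of 97.4% of all probe sets. Over all probe sets the vector arrays were also further apart, the median absolute log2 difference between replicates being 0.196 with Men1 and 0.306 with vector. The fibroblast matrix genes Dcn and Col3a1, chosen after their values were seen, also read highest on vector replicate 2. Not all fibroblast markers had this order, and Col5a1 and P4hb read lowest on that array. Dcn read 18.7 and 37.7 with Men1, against 18.5 and 139.3 with vector, and Col3a1 read 24.5 and 40.7 with Men1, against 30.9 and 101.3 with vector. On Men1-complemented replicate 1 both of these genes were at control level. Their part in the Pdgfra values was not tested. Which vector array is used set the direction for 160332_at. Without vector replicate 1 its log2 difference was -0.63, and without vector replicate 2 it was 0.65. It had an unadjusted limma p under 0.05 in each of these fits, in which 8.3% and 4.5% of all probe sets did, and did not pass after adjustment (adjusted p = 0.576 without vector replicate 1 and 0.88 without vector replicate 2). The third probe set, 161202_r_at, was at control level on all 4 arrays, with 6.5 and 4.4 with Men1 against 4.8 and 0.4 with vector.

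Pdgfrb, the receptor that binds PDGF-B, read 107.4 and 63.1 with Men1, against 87.3 and 69.2 with vector. The vector signals lay inside the range of the Men1-complemented ones. Means were 85.25 ± 31.3 and 78.25 ± 12.8 (SD, n = 2 each), and the log2 difference was 0.07 (SE 0.28, 95% interval -0.65 to 0.80).

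Met, the receptor of HGF, had the largest fitted difference of the 16 probe sets in absolute size, and also the largest SE. It read 87.7 and 21.9 with Men1, against 76.0 and 8.6 with vector. In each group the replicate 1 array was high and the replicate 2 array was at control level, so the groups overlapped. The log2 difference was 0.40 (SE 0.79, 95% interval -1.64 to 2.43), and as only 1 array of each group measured Met, its size is uncertain. With the control of the replicate 2 array standing in for the signal there, replicate 1 was at least 2.39-fold above replicate 2 with Men1 and at least 2.56-fold with vector, in signal + 16.

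Egfr, the receptor for EGF, TGF-alpha and heparin-binding EGF, was measured on all 4 arrays by 1 of its 3 probe sets. That probe set, 101840_at, read 64.6 and 36.3 with Men1, against 64.3 and 25.8 with vector. The last signal was not far above the control of its array (20.0) and lay below those of the Men1-complemented arrays (25.9 and 27.4). Replicate 1 was above replicate 2 in both groups, by 0.62 with Men1 and 0.94 with vector on the log2 scale, and the log2 difference between the groups was 0.16 (SE 0.40). Probe set 101842_g_at read 59.9 and 39.6 with Men1, against 85.7 and 14.3 with vector. The vector arrays lay on either side of the Men1-complemented ones, vector replicate 2 being at control level. The log2 difference was 0.23 (SE 0.60), which rests in part on that signal, and it was -0.65 without that array. Probe set 101841_at, at control level with Men1, read 20.1 and 5.0 there and 30.7 and 3.8 with vector. Of these 4 signals only vector replicate 1 exceeded its control.

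Over all 12422 probe sets, replicate 1 was the higher in both groups for 2556 and replicate 2 for 4402, and over the 16 growth factor probe sets for 7 and 5, counts that include signals at control level. Errfi1, a feedback inhibitor of EGFR, read 484.9 and 348.2 with Men1, against 570.1 and 218.3 with vector. It was again higher in replicate 1 of both groups, as was its other probe set. Not all feedback genes had this order, and Dusp2 and Socs3 were higher in replicate 2 of both groups. The summed signal of 6 measured smooth muscle and pericyte markers was 9182 and 5658 with Men1, against 11288 and 5420 with vector. Of these 6, 4 were above the controls on all 4 arrays, and Myh11, which defines smooth muscle, was at control level on all of them. Acta2, Tagln and Cnn1 were higher in replicate 1 of both groups, whereas Smtn, Rgs5 and Myh11 did not have that order in both. Their part in the Met and Egfr values was not tested. The labels do not say what the replicate number stands for.

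**Figure D3:**
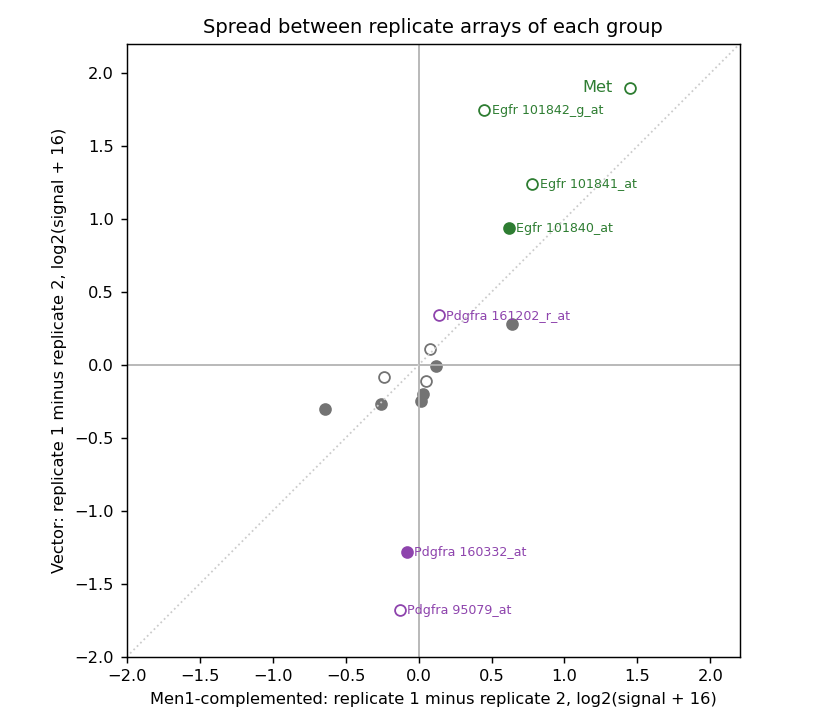
Difference between replicate 1 and replicate 2 in log2(signal + 16), with the Men1-complemented arrays on the horizontal axis and the vector arrays on the vertical axis, 1 point per probe set. Open points are probe sets at control level on at least 1 array, Met among them, whose position is uncertain. Egfr 101840_at, in green, is above 0 on both axes (0.62 and 0.94), and Pdgfra 160332_at, in purple, lies at -0.08 with Men1 and -1.28 with vector. The dotted line marks equal differences.

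Since both groups held an array of each number, the groups were also set side by side within each number. Met differed by 0.17 on the log2 scale within number 1, and within number 2 both of its signals were at control level and give no measure of a difference. Egfr 101840_at differed by 0.01 and 0.32, and 101842_g_at by -0.42 within number 1, its vector signal within number 2 being at control level. Fgfr2 differed by -0.23 and -0.50 in 93090_at and by -0.28 and -0.29 in 93091_s_at. Pdgfra 160332_at differed by 0.61 and -0.59.

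Among the ligands, Pdgfa, the PDGF-A chain, was bright on all 4 arrays. It read 689.0 and 633.5 with Men1, against 688.4 and 691.3 with vector. The signals overlapped, and the log2 difference was -0.06 (SE 0.17, 95% interval -0.51 to 0.39). Pdgfb, the PDGF-B chain, read 78.5 and 131.1 with Men1, against 104.7 and 133.0 with vector. The groups overlapped, the means were 104.8 ± 37.2 and 118.85 ± 20.0 (SD, n = 2 each), and the log2 difference was -0.19 (SE 0.28, 95% interval -0.92 to 0.54).

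Fgf7 and Fgf9 were at control level on all 4 arrays. Fgf7 read 10.4 and 9.0 with Men1, against 9.4 and 7.5 with vector. Fgf9, which signals between epithelium and mesenchyme in developing organs, read 13.5 and 12.4 with Men1, against 14.2 and 16.5 with vector. The Fgf9 signals did not overlap, but as all 4 lay below the controls of their arrays they give no measure of a difference. No fold is given for either gene.

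The rest of the pathway was read from the brightest probe set of each gene, in 4 lists. None of their genes passed in limma after adjustment or reached an unadjusted p under 0.05. Of 29 measured other ligands and receptors of the 4 families, 15 were higher and 14 lower with Men1, with a median log2 difference of 0.0020. Of these 29, 15 were at control level on all 4 arrays, among them Hgf, the ligand of Met (2.6 and 0.8 with Men1, 2.2 and 1.2 with vector), Fgf2, Fgf10 and Fgfr4. Hbegf, a ligand of Egfr, read 364.8 and 371.2 with Men1, against 414.4 and 251.1 with vector, which overlap. Fgfr3, a further FGF receptor, read 77.5 and 97.7 with Men1, against 66.6 and 86.2 with vector. Its log2 difference was 0.17 (SE 0.21) and its groups overlapped, while the other Fgfr3 probe set was at control level on all 4 arrays. Tgfa and Erbb3 were at control level with Men1, where the controls were brighter. Tgfa read 12.6 and 16.5 with Men1, against 8.3, also at control level, and 21.7 with vector. Erbb3 read 24.7 and 20.4 with Men1, against 23.0 and 30.1 with vector, and its groups overlapped.

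Of 28 adaptors and kinases of the RAS-ERK and PI3 kinase cascades, 17 were higher and 11 lower with Men1, with a median of 0.04. The adaptor Grb2, which links receptors to RAS, differed by 0.03 (SE 0.19), the adaptor Shc1 by -0.01 (SE 0.17) and Pik3r1, a regulatory subunit of PI3 kinase, by -0.07 (SE 0.19). Groups did not overlap for 6 of 28 (21.4%), a share near the 22.1% of all probe sets.

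Of 12 feedback inhibitors and genes of receptor turnover, 9 were higher and 3 lower, with a median of 0.13, and the groups did not overlap for 2 (16.7%, where 22.1% of all probe sets did not). Dusp6, a phosphatase that switches off ERK, read 197.7 and 170.9 with Men1, against 161.3 and 144.8 with vector. Those groups did not overlap and the log2 difference was 0.24 (SE 0.18), while the other Dusp6 probe set was at control level on all 4 arrays. Spry4, an inhibitor of receptor signalling, differed by -0.14 (SE 0.19) and Errfi1 by 0.20 (SE 0.48).

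Of 15 transcription factors that ERK induces or phosphorylates, with the cyclin Ccnd1 counted among them, 13 were higher and 2 lower with Men1. Their median was 0.26, where that of all probe sets was -0.01. The groups did not overlap for 7 of 15 (46.7%), 6 of them higher with Men1, where 22.1% of all probe sets did not overlap and 10.4% did so in the higher direction. Without vector replicate 1 the count was 9 of 15, with a median of 0.09 (-0.07 for all probe sets), and without each other single array it was 12 or 13. Many of these genes are known to be induced together, all were read on the same 4 arrays, and some of them were known from earlier results of these data to be higher, so the count is a description. Etv4, an ETS factor induced by FGF signals, read 285.9 and 238.8 with Men1, against 220.9 and 176.2 with vector, a log2 difference of 0.38 (SE 0.21). Fosl1 read 395.1 and 501.5 with Men1, against 383.9 and 308.1 with vector, a log2 difference of 0.36 (SE 0.22). Egr1 differed by 0.19 (SE 0.22) and Ccnd1, which drives cells into the cycle, by 0.13 (SE 0.19). None of these 4 passed in limma (adjusted p = 1 for each). The other Etv4 probe set differed by 0.04 (SE 0.33) and its groups overlapped, the other Ccnd1 probe set differed by 0.05 (SE 0.19) and the other, dim Egr1 probe set by -0.02 (SE 0.39).

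**Figure D4:**
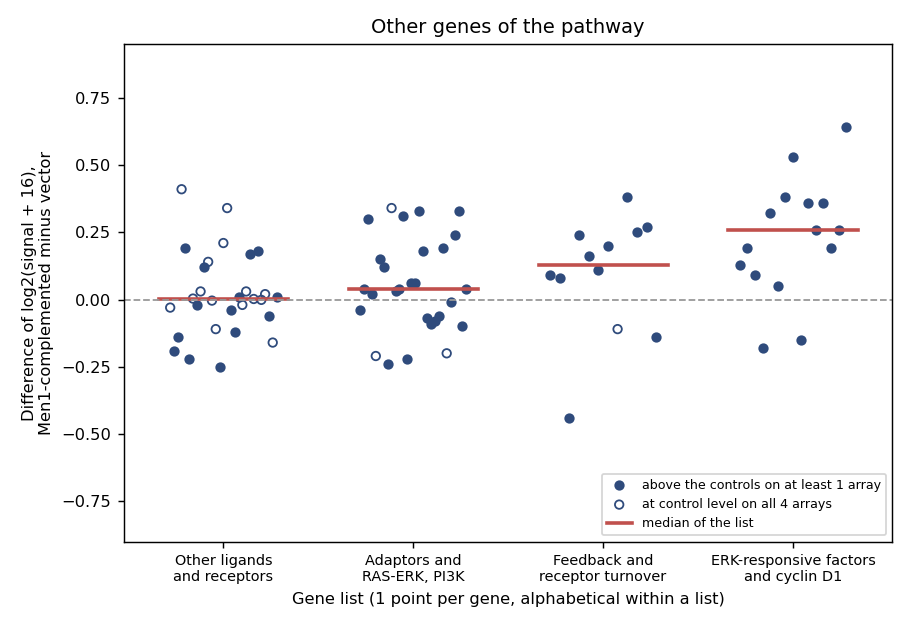
Difference of log2(signal + 16), Men1-complemented minus vector, for the genes of 4 pathway lists, 1 point per gene. Red bars are the list medians (0.0020, 0.04, 0.13 and 0.26 from left to right), and open points are genes at control level on all 4 arrays. The points of the list of ERK-responsive factors lie mostly above 0 (13 of 15), and those of the other ligands and receptors lie on both sides (15 and 14).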

How the data were processed

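RNA of cultured mouse embryonic fibroblasts was measured on 4 Affymetrix arrays. The deposited values are probe set intensity on a linear scale, which the authors computed by MAS5 in Affymetrix Expression Console, per the submitters' processing notes; no version was found in the sources used here. Trimmed means were 150.07 to 150.08 on all arrays, so each had been scaled as a whole, and 75th percentiles spanned 0.0674 on the log2 scale. Median signals were less even, at 54.3 and 55.7 with Men1 and 50.0 and 62.4 with vector. No further normalization was applied. The 66 control probe sets were left out and 12422 of 12488 were tested as log2(signal + 16). The two-sided test was that of limma 3.58.1 (lmFit, then eBayes; R 4.3.3), and p-values were adjusted over all of them by Benjamini-Hochberg and called under 0.05. Residual degrees of freedom were 2, and prior ones 2.87. The fit was tested on simulated data. With 4 arrays precision was limited: the median SE over all probe sets was 0.22.

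The platform annotation gave 1 symbol for 10833 probe sets, several for 396 and none here for 1193. Gene IDs of 10817 were found in a RefSeq gene table (GRCm38.p6), used for names only. Promoter sequence is from RefSeq, and 7 of the 10 genes matched an entry used here. Entries of 1 chromosome were left out before matching, so that count is not of all genes with a promoter entry.

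The named genes were all probe sets of the 10 members and 30 pathway genes fixed by name, of which 18 were measured; not all of these are printed. Members and lists were chosen with earlier results of these data known. Alternatives were other pseudocounts and scalings, a filter on dim probe sets, a block for replicate number, single arrays left out, and control probe sets included.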

Additional observations from a re-analysis of the deposited data

How the results depend on the processing

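In all 11 other settings of the fit 0 probe sets passed in limma, of 12422 tested (8412 with the filter on dim probe sets and 12488 with controls included), and the lowest adjusted p of a growth factor probe set was 0.576. The count at an unadjusted p under 0.05 was 233 as reported, 121 with only probe sets above the controls on at least 2 arrays, which tests fewer, and 121 to 1031 without single arrays. Of the 16 growth factor probe sets, 0 to 3 had an unadjusted p under 0.05 without single arrays. Their groups then did not overlap for 6 to 15, where 50.0% to 72.4% of all probe sets did not. After quantile normalization the groups did not overlap for 2, both of Fgfr2, instead of 4 (25.3% of all probe sets, against 22.1% as reported), and the cause was not tested. Their median difference stayed between -0.14 and -0.01. The count of ERK-responsive genes higher with Men1, checked in settings chosen after seeing the data, was 9 to 13 of 15 without single arrays and 12 or 13 in the other settings that kept all 15.

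The sign was kept in all settings run by both brighter Fgfr2 probe sets, Fgfr1 and Pdgfa. Pdgfa was close to 0 (-0.0017) without Men1-complemented replicate 2. For Fgfr2 and Fgfr1, whose groups did not overlap, leaving out an array could not turn the sign. Nor could the replicate block or the added control probe sets, which left the differences unchanged. Fgf7, Fgf9 and Pdgfra 161202_r_at kept their sign too, but were at control level on all 4 arrays and give no measure. In the other 9 it turned, in 15 of the 170 values of all 16 probe sets, all without a single array except Pdgfra 160332_at with a pseudocount of 64 (-0.03). In fits that left out 1 array, which take a lone array to be as variable as the rest, differences ranged from -0.63 to 0.65 for Pdgfra 160332_at, -1.03 to 0.64 for Pdgfra 95079_at, -0.25 to 0.40 for Pdgfrb and -0.22 to 0.02 for Fgfr2 162171_f_at. They ranged from -0.31 to 0.64 for Egfr 101840_at, -0.76 to 0.48 for Egfr 101841_at, -0.65 to 1.10 for Egfr 101842_g_at, -0.55 to 1.35 for Met and -0.50 to 0.13 for Pdgfb. Fgfr2 162171_f_at was at control level on all 4 arrays, and Pdgfra 95079_at, Met, Egfr 101841_at and Egfr 101842_g_at on some, so these ranges rest in part on signals that measure nothing.

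The labels do not say that a replicate number marks a shared culture or day. Across all probe sets the replicate differences of the groups correlated at 0.26, or 0.37 among those above the controls on all 4 arrays. With replicate number as a block, 297 probe sets had an unadjusted p under 0.05, 0 passed, 0 of the 16 had an unadjusted p under 0.05, and their median difference was -0.08.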
